A study of Populus tremula x Populus alba with 64 samples.

Results

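The control stems of this poplar experiment were compared between 11 days and 24 hours of foliar spraying with the carrier solution alone. They are 10 of the 64 RNA-seq libraries of the series, 6 from 11-day stems and 4 from 24-hour stems. The members were the control stem libraries with at least 1000000 counts, which 10 of 15 reached. All plants were rooted leafy cuttings of 1 clone, INRA 717-1B4, of the hybrid Populus tremula × Populus alba, and the control plants had only 1 N KOH sprayed on their leaves. The study kept a separate control set for each of its sprays, which are auxin enhancers (AE, a mixture of NAA and IBA) and an auxin inhibitor (AI, NPA), and both sets received the same solution. The control-AE arm therefore holds 3 libraries at 11 days and 2 at 24 hours, and the control-AI arm likewise holds 3 and 2. Nothing in the labels says whether the numbered samples were separate plants, so the p-values measure the spread between these samples.

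A young poplar stem carries a growing tip of soft primary tissue and, below it, a cambium that adds phloem on the outside and lignified xylem on the inside. As internodes stop elongating, genes of cell expansion and epidermal patterning are usually used less, and genes of wall thickening and storage more. Auxin moves down the stem through efflux carriers of the PIN and ABCB families and is among the signals that pattern the vascular tissue. The stem samples here were ground whole, so a smaller share of a cell type and less RNA per cell of that type cannot be told apart.

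The 24-hour and 11-day stems also differed in age and in the number of sprays, and their harvest hour is stated for 11-day plants alone. These differences cannot be told apart from the time of treatment in any comparison given here. Total counts ranged from 5360991 to 16531838 at 11 days and from 8829613 to 10125799 at 24 hours. Ribosomal RNA (the rows of Rfam family RF02543) took 0.0654% to 0.103% of the counts at 24 hours and 0.173% to 11.4% at 11 days. Among these member libraries every 11-day library thus lay above every 24-hour library. A pair of 11-day libraries stood apart, control-AE replicate 1 with 7.59% and control-AI replicate 2 with 11.4%, and the other 4 lay at or below 0.503%. The same pair had the lowest total counts, 5360991 and 5479136, and the fewest detected rows, 28820 and 27801. Its scores on the first principal component were the most distant. Depth and ribosomal share cannot be told apart in this pair. The ribosomal rows were dropped before any fit, and the comparison of 11 days with 24 hours in control stems was also fitted without this pair. The tests between arms, between stem and root, and between sprayed and control stems were not.

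The stem label was checked on marker rows. Rows of green tissue (light-harvesting proteins, photosystem subunits and the small subunit of Rubisco) summed to 1262 to 3082 CPM (counts scaled to a library of 1000000) in the control stems against 17.3 to 101 CPM in the control roots. Rows of epidermis and cuticle summed to 245 to 409 CPM in stems against 8.83 to 26.3 CPM in roots. The root marker rows did not separate the tissues, at 195 to 344 CPM in stems and 190 to 243 CPM in roots.

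Of 22591 rows tested (a row is 1 transcript model), 185 differed between 11 days and 24 hours at an adjusted p under 0.05 by edgeR's quasi-likelihood test with arm as a covariate, which is 0.819% of all rows. At 11 days 162 of them were lower (0.717% of all rows) and 23 were higher (0.102%). At an unadjusted p under 0.05 the test held 3180 rows. The median log2 fold change over all rows was 0.01, which the TMM scaling sets near 0. The split between directions depended on the test and the libraries: DESeq2 called 578 lower and 384 higher, and the control-AE stems alone gave 131 lower and 91 higher. The lower rows moved further than the higher ones. Their log2 fold changes had a median of -1.77 and 149 of 162 passed 1 in size, whereas the median of the higher rows was 0.83 and 5 of 23 passed 1. The 6 libraries at 11 days did not overlap with the 4 at 24 hours in 158 of the 162 lower and in 22 of the 23 higher rows, beside 591 (2.62%) and 397 (1.76%) over all rows.

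**Figure D1:**
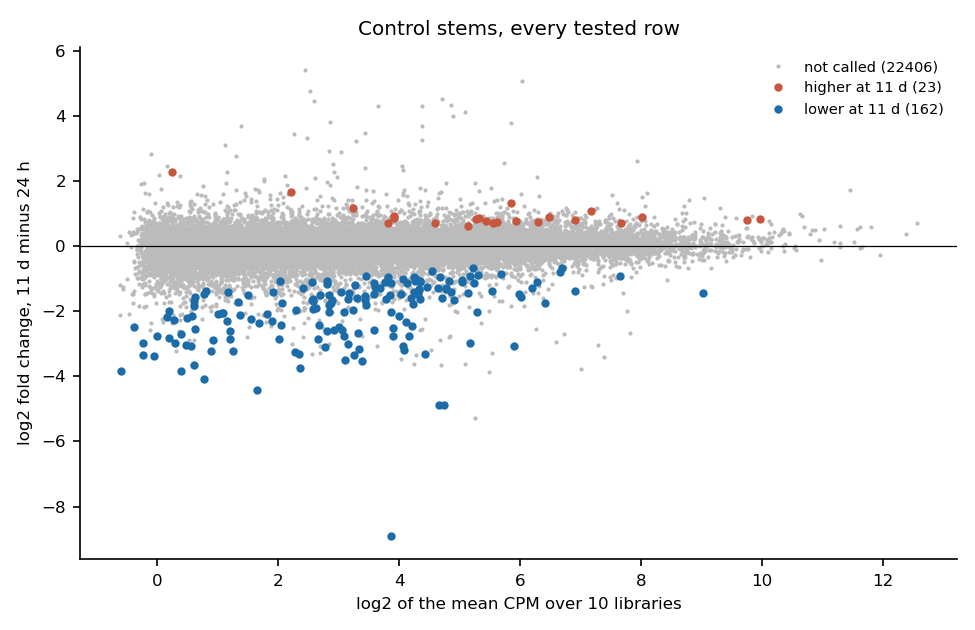
Log2 fold change (11 days minus 24 hours) of each of 22591 rows in control stems against the log2 of its mean CPM over 10 libraries, with the 23 rows called higher at 11 days, the 162 called lower and the rows not called in different colours. The lower rows reach far larger changes than the higher rows, and they sit at lower mean levels.

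The number of calls depended on single libraries. It was 104 and 67 without control-AE 11-day replicates 1 and 4, 65 and 111 without control-AE 24-hour replicates 2 and 3, 110 and 675 without control-AI 11-day replicates 1 and 3, and 69 and 83 without control-AI 24-hour replicates 1 and 3. Without the pair of libraries with the most ribosomal RNA, 64 rows passed (63 lower, 1 higher), and 57 of the 185 were among them. With the log of the ribosomal RNA share as a second covariate 5 rows passed, all of them lower. In each of these fits all of the 185 rows that could be tested kept their sign. The fits share libraries with the one that chose the rows, so the kept signs are a description.

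The called rows were ordinary messenger RNA models for the most part. A protein-coding transcript was the source of 96.9% of the lower and 91.3% of the higher rows, against 93.2% of all tested rows. Their median lengths were 1723 and 1602 bases, against 1698 for all rows. Among the higher rows 34.8% had a single exon, against 21% of the lower and 13% of all rows. The median level was 9.2 CPM for the lower, 47.1 CPM for the higher and 12.5 CPM for all rows. Pairs of a called row and a tested row of another gene within 100 kb numbered 2439, and in 60 of them (2.46%) the neighbour was called as well. A row near several called rows enters several pairs, so this share is not of the same unit as the 0.819% of all tested rows. A called neighbour was present for 41 of the 185 rows, and the same share over all tested rows was not counted. A run of 4 called genes lay between bases 7413338 and 7454311 of sequence NC_037295.1 (as named in the files), with log2 fold changes from -2.75 to -3.27, and another of 4 lay between bases 3649367 and 3746082 of NC_037301.1, with changes from -1.84 to -3.85. Neighbouring genes are often copies of each other, and the sources used here do not say how reads of near-identical copies were counted.

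Product names were at hand for 1583 of the tested rows, through the gene names of a supplementary list of the study that was made on roots, and 16 of the 185 called rows had one. The other called rows are known here by identifier alone. The row that fell furthest belongs to gene 18099024. It stood at 74.4, 31.5, 34.9 and 4.65 CPM in the 4 libraries at 24 hours, and between 0 and 0.214 CPM at 11 days. The next, gene 7487210, stood at 48.4, 75.0, 65.7 and 52.3 CPM at 24 hours and at 1.26 to 3.14 CPM (median 1.52) at 11 days, a log2 fold change of -4.89 ± 0.27 (SE) with an adjusted p of 3.29e-05 in edgeR. Among the higher rows the largest changes were at low levels. Gene 18099214 stood at 0.486, 0.198, 0.205 and 0.432 CPM at 24 hours and at 0.847 to 2.57 CPM at 11 days. Gene 7475537 stood at 1.17, 1.79, 1.84 and 3.24 CPM at 24 hours and at 4.01 to 9.22 CPM at 11 days.

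The named rows that fell included BEE 1, PRE1 and TOO MANY MOUTHS. BEE 1 and PRE1 are basic helix-loop-helix factors that promote cell elongation in Arabidopsis, the former induced early by brassinosteroid. Transcription factor BEE 1 (gene 7456825) stood at 12.1 and 12.8 CPM in the 24-hour libraries of control-AE and at 7.37 and 10.4 CPM in those of control-AI. At 11 days its lowest value was 2.57, its median 3.31 and its highest 5.49 CPM, so the groups did not overlap. Its log2 fold change was -1.49 ± 0.25 (SE), with an adjusted p of 0.0204 in edgeR. Transcription factor PRE1 (gene 7482464) stood at 7.10, 8.63, 13.3 and 11.5 CPM at 24 hours and at 1.72 to 7.45 CPM (median 2.47) at 11 days. Here control-AI 11-day replicate 3, at 7.45 CPM, lay above the lowest 24-hour library, and the log2 fold change was -1.63 ± 0.30 (adjusted p = 0.0357 in edgeR). TOO MANY MOUTHS is a receptor-like protein that spaces the stomata of the epidermis in Arabidopsis. Its row (gene 18101887) stood at 12.6, 12.5, 18.0 and 17.8 CPM at 24 hours and at 2.52 to 10.2 CPM (median 3.56) at 11 days. The log2 fold change was -1.64 ± 0.32 (adjusted p = 0.0434 in edgeR), and the highest 11-day value was again that of control-AI replicate 3. Summed over the epidermis and cuticle markers the 2 times overlapped, at 245 to 409 CPM at 11 days and 253 to 352 CPM at 24 hours, none of the 4 rows was called, and the part of epidermal tissue in the fall of TOO MANY MOUTHS was not tested.

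The named rows that fell included 3 membrane transporters, grouped here by their product names alone. Auxin efflux carrier component 3 is a member of the PIN family, which carries auxin out of cells. Its row (gene 7488396) stood at 171, 118, 106 and 150 CPM at 24 hours and at 61.2 to 91.0 CPM (median 76.7) at 11 days. All 6 libraries at 11 days lay below all 4 at 24 hours, and the log2 fold change was -0.81 ± 0.16 (adjusted p = 0.0431 in edgeR). ABC transporter B family member 2 belongs to the family that includes further auxin transporters, although its own substrate is not assigned here. Its row (gene 7491869) stood at 19.4, 21.3, 16.5 and 13.6 CPM at 24 hours and at 4.09 to 9.46 CPM (median 5.08) at 11 days. Its log2 fold change was -1.55 ± 0.18 (adjusted p = 0.00443 in edgeR), and its call held in each of the 10 fits that lacked 1 library. NRT1/ PTR FAMILY 5.4 is a member of the nitrate and peptide transporter family. Its row (gene 18097184) stood at 34.0, 30.6, 23.8 and 34.5 CPM at 24 hours and at 7.21 to 13.9 CPM (median 9.61) at 11 days. The fall of 1.58 ± 0.21 on the log2 scale had an adjusted p of 0.00725 in edgeR and also held in each of those 10 fits.

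Laccase-17, trehalose-phosphate phosphatase J and GDSL esterase/lipase 5 were lower at 11 days, as single members of their lists. Laccases couple monolignols into lignin, and laccase-17 (gene 7462337) stood at 34.8, 28.7, 30.4 and 29.2 CPM at 24 hours and at 14.4 to 23.3 CPM (median 17.6) at 11 days, with no overlap. Its log2 fold change was -0.77 ± 0.14 (adjusted p = 0.0311 in edgeR). Trehalose-phosphate phosphatase removes the phosphate from trehalose 6-phosphate, a signal of sucrose supply in plants. The row of probable trehalose-phosphate phosphatase J (gene 7490222) stood at 72.3, 48.7, 46.1 and 59.2 CPM at 24 hours and at no more than 29.3 CPM (median 18.5) at 11 days. It fell by 1.44 ± 0.21 on the log2 scale (adjusted p = 0.0111 in edgeR), with the same sign in both arms. GDSL esterase/lipase 5 (gene 7483573), of a family with roles in surface lipids, stood at 14.3, 18.1, 20.3 and 19.0 CPM at 24 hours and at 4.08 to 12.2 CPM (median 7.72) at 11 days, a log2 fold change of -1.13 ± 0.20 (adjusted p = 0.0325 in edgeR).

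Conjugating enzymes and proteins of less known role made up the rest of the named falls. Anthocyanidin 3-O-glucosyltransferase 5 (gene 7478011), an enzyme that attaches glucose to flavonoid pigments, stood at 12.3, 10.0, 8.29 and 9.51 CPM at 24 hours and at 2.53 to 4.35 CPM (median 3.01) at 11 days. Its log2 fold change of -1.66 ± 0.18 had the lowest adjusted p of the named rows, 0.0033 in edgeR. A probable glutathione S-transferase (gene 18109264) stood at 51.9, 35.02, 72.6 and 46.0 CPM at 24 hours and at 7.33 to 20.7 CPM (median 18.1) at 11 days, a log2 fold change of -1.67 ± 0.29 (adjusted p = 0.0248 in edgeR). The 14 kDa proline-rich protein DC2.15 (gene 7458376), first named in carrot, stood at 55.5, 32.4, 48.7 and 38.5 CPM at 24 hours and at 10.1 to 22.3 CPM (median 13.2) at 11 days. The UPF0481 protein At3g47200 (gene 7493260) stood at 49.0, 52.7, 27.5 and 41.5 CPM at 24 hours and at no more than 21.1 CPM (median 16.7) at 11 days. These last rows had log2 fold changes of -1.60 ± 0.25 (adjusted p = 0.0152) and -1.28 ± 0.17 (adjusted p = 0.00854) in edgeR, and in both all 6 libraries at 11 days were below all 4 at 24 hours.

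Only 3 named rows rose, and all had moderate to high levels. Histone H1 is the linker histone that binds DNA between nucleosomes. Its row (gene 18099218, at bases 8973183 to 8974232 of sequence NC_037289.1, 2 exons) stood at 649, 608, 622 and 824 CPM at 24 hours and at 1025 to 1413 CPM (median 1229) at 11 days. The log2 fold change was 0.85 ± 0.13 (adjusted p = 0.0128 in edgeR). A second linker histone row, histone H1.2, did not pass, with 263 ± 53.8 CPM (SD, n = 6) at 11 days against 259.9 ± 16.3 CPM (SD, n = 4) at 24 hours. Homeobox protein BEL1 homolog (gene 7472750), of a class of homeodomain factors that act in meristems and organ patterning, stood at 33.6, 37.7, 34.2 and 35.1 CPM at 24 hours and at 48.7 to 68.9 CPM (median 59.2) at 11 days. Cytochrome P450 94A1 (gene 18099665), of a family that hydroxylates fatty acids, stood at 22.6, 27.2, 31.5 and 25.1 CPM at 24 hours and at 34.8 to 43.9 CPM (median 41.3) at 11 days. Their log2 fold changes were 0.74 ± 0.12 (adjusted p = 0.0214) and 0.61 ± 0.12 (adjusted p = 0.046) in edgeR, with no overlap between the times. All 16 named rows had the same sign in both arms, and all but PRE1 had no overlap between the times. Both traits were conditions of choice for all but PRE1, so they are a description. Over all rows fitted in both arms, 14194 of 22094 had the same sign. When each library was omitted in turn, 5 of the 16 kept their call in all 10 fits (anthocyanidin 3-O-glucosyltransferase 5, NRT1/ PTR FAMILY 5.4, ABC transporter B family member 2, trehalose-phosphate phosphatase J and the UPF0481 protein), and cytochrome P450 94A1, TOO MANY MOUTHS and auxin efflux carrier component 3 kept theirs in 1. Without the pair of libraries rich in ribosomal RNA, 3 of the 16 were still called (anthocyanidin 3-O-glucosyltransferase 5, ABC transporter B family member 2 and GDSL esterase/lipase 5) and none changed direction, and with the ribosomal share as a covariate none of the 16 was called.

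**Figure D2:**
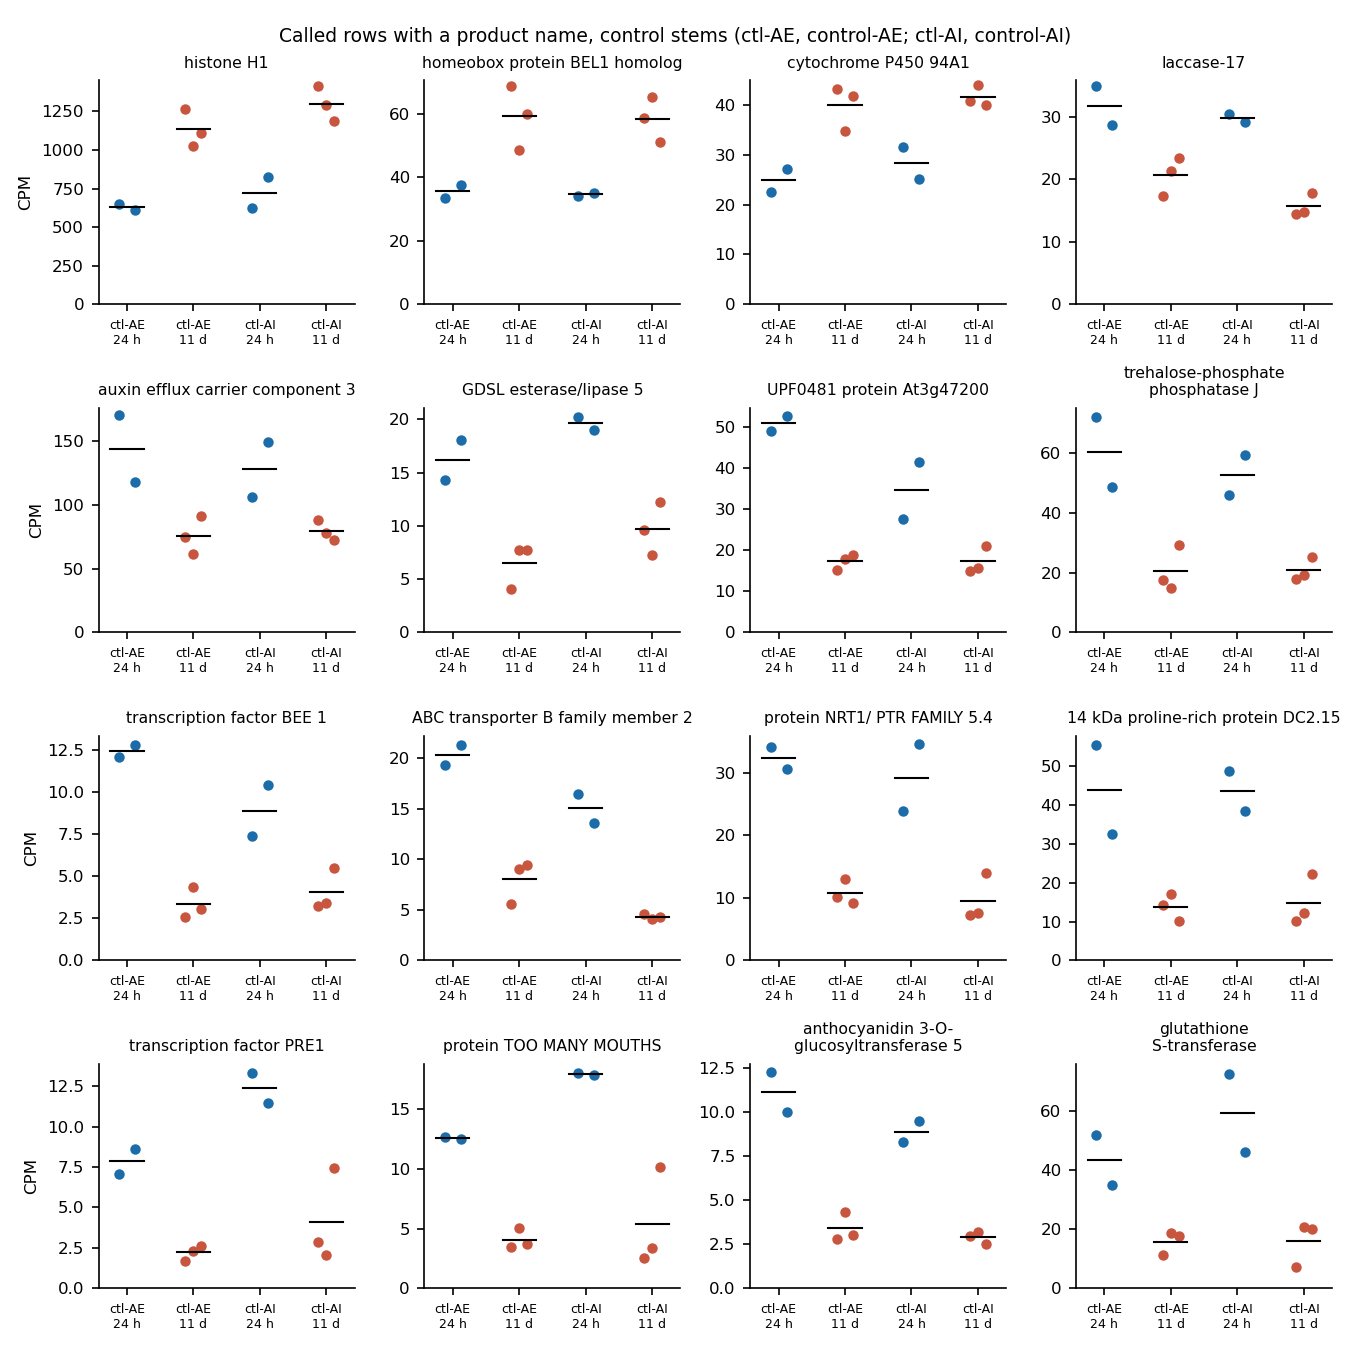
CPM of the 16 called rows with a product name in each of the 10 control stem libraries, by arm and time (ctl-AE is control-AE and ctl-AI is control-AI, points are libraries and bars are means, each axis starts at 0). Histone H1, the BEL1 homolog and cytochrome P450 94A1 are higher at 11 days in both arms and the other 13 rows are lower. Only PRE1 overlaps between the times, as the other rows were chosen for having no overlap.

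Gene groups of known function showed single calls and few movements of a whole group. In 24 lists built from product names, 344 rows were tested and 8 were called (7 lower, 1 higher), which is 2.33% beside 0.819% of all rows. No member was called in 16 of the lists, which at the share over all rows is common for lists so short. The rows that have a name at all were chosen by their order in a test on roots, so that this share is a description. The called members were histone H1 in the cell division list, and laccase-17, auxin efflux carrier component 3, BEE 1, trehalose-phosphate phosphatase J, NRT1/ PTR FAMILY 5.4, anthocyanidin 3-O-glucosyltransferase 5 and GDSL esterase/lipase 5, each in its own list.

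Most nitrogen and auxin rows lay on the lower side, but the 2 most abundant rows of each list did not. In the nitrogen list (nitrate and ammonium transporters, glutamine and glutamate enzymes, bark storage proteins) 25 of 32 rows had a log2 fold change below 0 and the median was -0.42, with 1 row called lower and 31 not called. Over all tested rows the median was 0.01 and 11073 of 22591 were below 0. The most abundant rows, 2 genes for glutamine synthetase cytosolic isozyme 1-1, had 434 and 301 CPM at 11 days and 365 and 261 CPM at 24 hours. Their log2 fold changes were 0.25 ± 0.15 and 0.22 ± 0.36, and neither was called. Nitrate reductase, which makes nitrite from nitrate, had 56.3 CPM at 11 days and 91.3 CPM at 24 hours without passing the test (adjusted p = 0.251 in edgeR). In the auxin list 17 of 23 rows were below 0 and the median was -0.39, again with 1 call. The most abundant rows there were not called. Auxin-repressed 12.5 kDa protein had 708 CPM at 11 days and 563 CPM at 24 hours (0.33 ± 0.15), and IAA16 had 413 and 406 CPM (0.002 ± 0.22). Auxin-induced protein 22D missed the threshold (log2 fold change -1.72, adjusted p = 0.0514 in edgeR), as did auxin response factor 19 (-0.64, adjusted p = 0.148). Both of these and nitrate reductase were chosen after their values were seen.

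Lignin genes did not move as a block. All 5 laccase-17 genes had negative log2 fold changes, from -0.62 to -1.96. In 3 of them the libraries at the 2 times did not overlap, beside 591 rows (2.62%) apart and lower over all rows. Only the gene described above passed the test. Laccase-14 and laccase-7 rows lay between -0.18 and 0.42. Laccase-4 had 35.3 CPM at 11 days and 36.2 CPM at 24 hours (-0.016 ± 0.18, adjusted p = 0.979 in edgeR). Among 11 monolignol synthesis rows none was called and the median was 0.09. Trans-cinnamate 4-monooxygenase, which starts the pathway from cinnamate, had 1550 CPM at 11 days and 1179 CPM at 24 hours (log2 fold change 0.41 ± 0.21, adjusted p = 0.399 in edgeR). Cinnamoyl-CoA reductase 1 had 667 and 497 CPM (0.43 ± 0.14, adjusted p = 0.194). Among 23 rows of secondary wall polysaccharides none was called. WALLS ARE THIN 1, a membrane protein needed for fibre walls in Arabidopsis, had 306 CPM at 11 days and 423 CPM at 24 hours (-0.46 ± 0.15, adjusted p = 0.189), and cellulose synthase A catalytic subunit 1 had 290 and 338 CPM (-0.22 ± 0.11, adjusted p = 0.389). The xylem markers summed to 74.1 to 154 CPM at 11 days and 127 to 175 CPM at 24 hours, with laccase-17 the only called row of 8, and their part in its fall was not tested.

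Rows of photosynthesis, sugar transport and water channels held no call. Over all tested rows 0.819% were called, a share at which lists of this size would often hold none. None of 17 photosynthesis rows passed, with a median of 0.02. The light-harvesting protein of LHCII type 1 had 514 ± 142 CPM (SD, n = 6) at 11 days and 563 ± 165 CPM (SD, n = 4) at 24 hours, and the small chain of ribulose bisphosphate carboxylase, the enzyme that fixes carbon dioxide, had 416 ± 72.7 and 398 ± 199 CPM. In the sugar list none of 16 rows was called, including 2 genes for probable fructokinase-4 whose log2 fold changes were -0.46 ± 0.16 and 0.28 ± 0.13. The sucrose carrier SUC8 had 190 CPM at 11 days and 259 CPM at 24 hours (-0.43 ± 0.23, adjusted p = 0.433 in edgeR). In the starch and trehalose list the phosphatase described above was the only call of 13 rows. There, inactive beta-amylase 9 had 469 and 729 CPM (-0.68 ± 0.29, adjusted p = 0.317), and the small subunit 2 of glucose-1-phosphate adenylyltransferase, the enzyme that commits glucose to starch, had 329 and 253 CPM (0.38 ± 0.15, adjusted p = 0.27). None of 11 aquaporin rows was called. The most abundant water channels, PIP1-2 and PIP2-8, had 1053 against 861 CPM and 955 against 766 CPM, and neither change exceeded the spread between libraries.

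Clock and light signalling rows were listed because the harvest hour of the 24-hour plants is not stated. None of 11 clock and light signalling rows was called, 8 of them had a log2 fold change above 0, and the median was 0.35, the highest of the 24 lists. CONSTANS-LIKE 2, which the day cycle drives in many plants, had 148 CPM at 11 days and 116 CPM at 24 hours (0.36 ± 0.11, adjusted p = 0.183 in edgeR), and CONSTANS-LIKE 4 had 246 and 280 CPM (-0.19 ± 0.14, adjusted p = 0.567). In the flavonoid list, anthocyanidin 3-O-glucosyltransferase 6 was 55.2 CPM at 11 days and 32.02 CPM at 24 hours and flavonoid 3'-monooxygenase 7.67 and 20.2 CPM. The libraries of these rows did not overlap between the times, but their adjusted p were 0.124 and 0.0818 in edgeR.

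**Figure D3:**
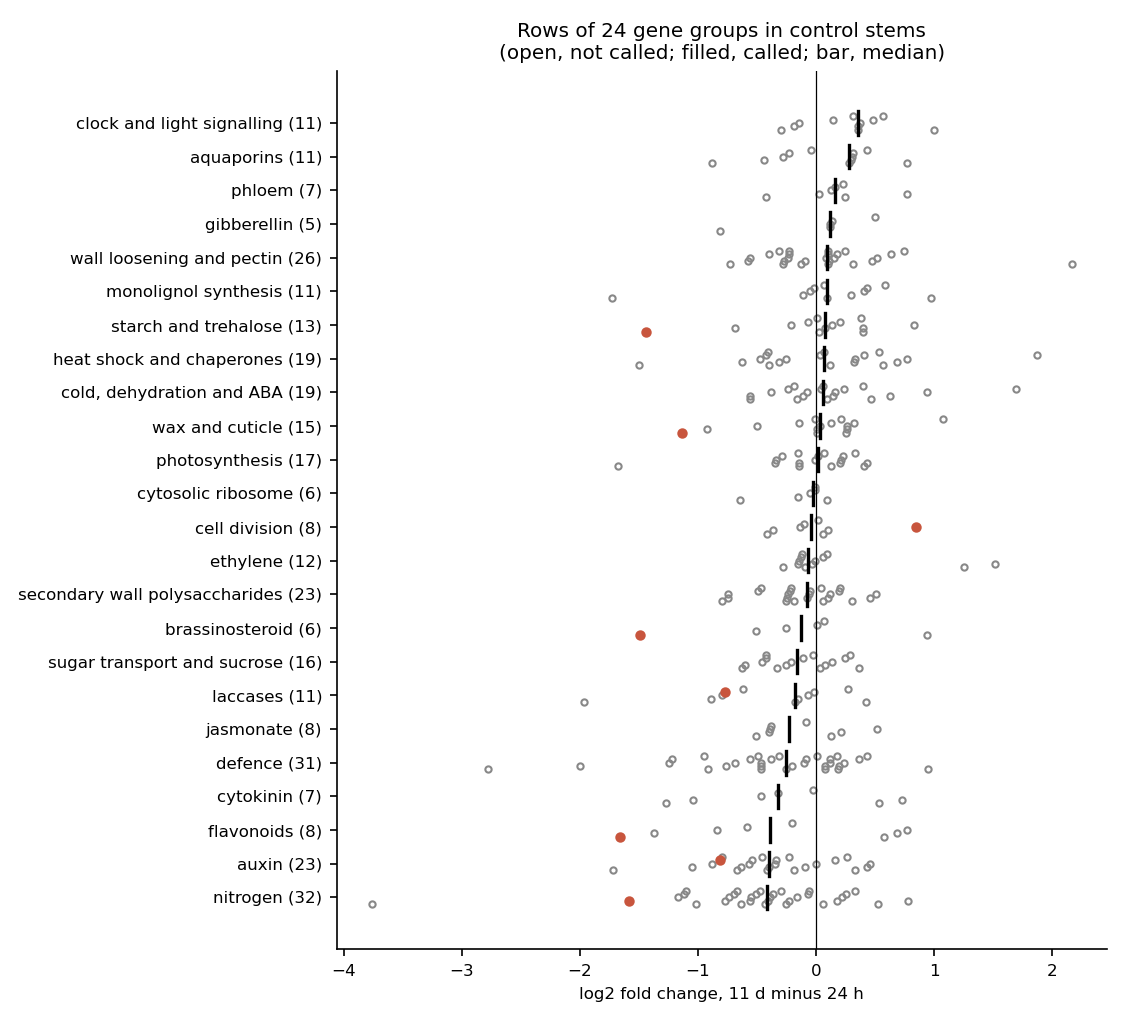
Log2 fold change (11 days minus 24 hours) of each tested row of 24 gene groups in control stems, with called rows filled, others open and the median of each group as a bar (number of rows in brackets). The medians run from -0.42 for nitrogen to 0.35 for clock and light signalling, and 8 rows in 8 groups were called.

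Genes that the study had singled out in roots were also measured here. Beta-amylase 1, an enzyme of starch breakdown, had 28.8 CPM in stems at 11 days and 15.95 CPM at 24 hours, a log2 fold change of 0.83 ± 0.22 that did not pass (adjusted p = 0.136 in edgeR). The tested AAA-ATPase ASD rows had log2 fold changes of 0.50 ± 0.35 and 0.32 ± 0.43, and the polygalacturonase row had 4.48 and 4.10 CPM (0.09 ± 0.33). The last of these genes was too low in stems to be tested.

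The change between the times differed between the control arms in 1 row of 22591 (0.00443%), although both arms had the same spray. Class V chitinase (gene 7479547), an enzyme that cuts chitin, stood at 43.3 and 35.6 CPM at 24 hours and at 1.29, 1.57 and 1.76 CPM at 11 days in control-AE stems. In control-AI stems it stood at 5.73 and 4.65 CPM at 24 hours and at 3.89, 3.18 and 3.72 CPM at 11 days. The high values were thus those of control-AE stems at 24 hours, and the difference between the arms was 4.12 ± 0.34 on the log2 scale (adjusted p = 0.00528 in edgeR). It was no longer called without control-AE 24-hour replicate 2 or without either 24-hour library of control-AI. At an unadjusted p under 0.05 the test of the arms held 886 rows, and DESeq2 called 69. The next 4 named rows did not pass. Peroxidase 21 stood at 142 and 130 CPM at 24 hours and 18.0 to 31.96 CPM at 11 days in control-AE stems and overlapped in control-AI stems, and the lipid-transfer protein DIR1 (gene 7494464) showed the same order (adjusted p = 0.465 and 0.404 in edgeR). Aquaporin PIP1-4 stood at 8.63 and 9.92 CPM at 24 hours and at 15.9 to 34.8 CPM at 11 days in control-AE stems, and the transcription factor MYB93 at 0.972 and 0.992 CPM and at 5.58 to 6.65 CPM. In control-AI stems PIP1-4 had the opposite order, with 16.9 and 22.7 CPM at 24 hours and 8.87 to 13.7 CPM at 11 days, and the libraries of MYB93 overlapped. The adjusted p for the arms was 0.374 for both in edgeR. The level itself differed between the arms in none of the 22591 rows by edgeR, with 914 at an unadjusted p under 0.05 and 13 called by DESeq2. Fitted alone, the control-AE stems gave 222 calls and the control-AI stems 2, and the difference between these numbers is not a test.

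**Figure D4:**
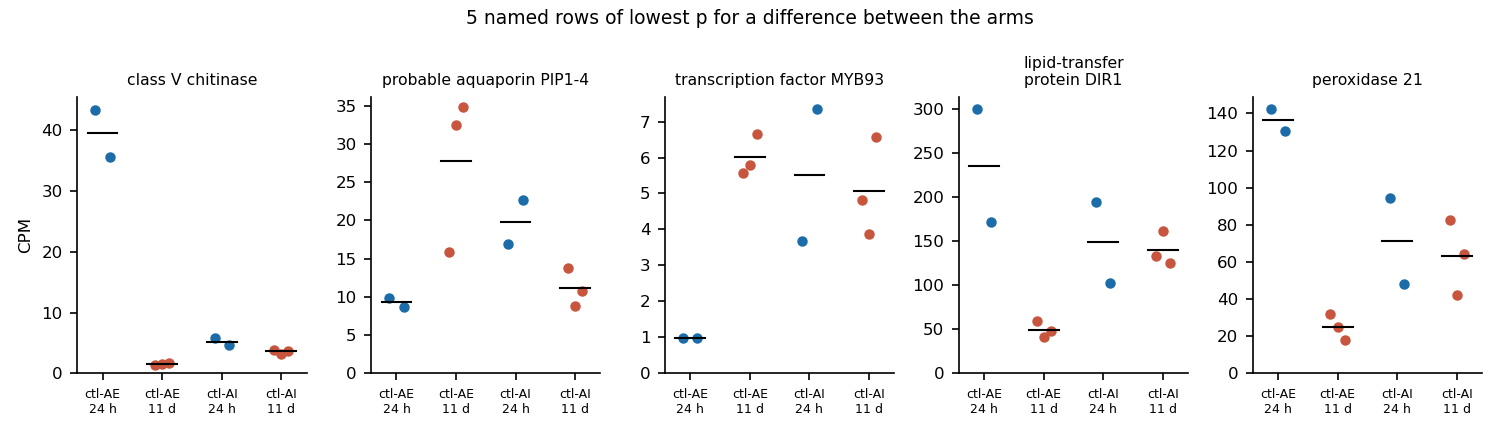
CPM of the 5 named rows with the lowest p for a difference between the arms in the change over time, in each control stem library (ctl-AE is control-AE and ctl-AI is control-AI, points are libraries and bars are means). Class V chitinase was called, with 35.6 and 43.3 CPM in control-AE stems at 24 hours and at most 5.73 CPM elsewhere.

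The rows called in control stems were then followed in stems they were not chosen from. The AE stems gave 5 libraries at 11 days and 3 at 24 hours with at least 1000000 counts. Of the 162 lower rows 156 could be tested there, 154 had the same sign and 57 were called lower again, which is 36.5% of them against 1.33% of all rows called lower in AE stems. Of the 23 higher rows 22 had the same sign and 3 were called higher, 13% against 1.13%. The 60 rows called in both are 32.4% of the control stem calls and 10.8% of the 557 AE stem calls. ABC transporter B family member 2 fell in AE stems by 1.73 ± 0.22 on the log2 scale, from 21.2 to 23.0 CPM at 24 hours to 4.38 to 8.91 CPM at 11 days (adjusted p = 0.0165 in edgeR). PRE1 fell there by 1.43 ± 0.27 (adjusted p = 0.0305). The other 14 named rows were not called in AE stems.

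In the AI stems the called rows had no common direction. These stems gave 2 libraries at each time. In the lower rows their 11-day libraries lay near the 24-hour libraries of all groups, and in the higher rows they lay above those of control stems. The time of these AI libraries was taken from the labels, with no separate check of it in these data. Of 161 lower rows tested 73 had the same sign, none was called lower and 1 was called higher, and of 22 higher rows 10 had the same sign and none was called. Over all 22643 rows tested in AI stems 50.1% were below 0, 0 were called lower and 26 were called higher (0.115%). The lack of lower calls thus held for every row and is not particular to the rows followed. The median log2 fold change of the lower rows was 0.05 in AI stems and -1.21 in AE stems. In a single fit of all 22 stem libraries, the change in AI stems differed from that in control stems in 11 of 22450 rows (0.049%), all of which were among the 161 lower rows that this fit could test, and all with a less negative change in AI stems. The control values of this test also chose those rows, so the overlap is a description. At an unadjusted p under 0.05 this test held 1591 rows. For ABC transporter B family member 2 the difference was 1.84 ± 0.32 on the log2 scale (adjusted p = 0.0428 in edgeR), with 16.3 and 19.5 CPM in AI stems at 11 days and 14.5 and 15.03 CPM at 24 hours. The change in AE stems differed from that in control stems in 1 row (0.00445%), which was not among the called rows.

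The levels showed where the groups parted. At 24 hours the 161 lower rows had a median log2(CPM + 0.1) of 3.88 to 4.25 in the 4 control stem libraries, 3.67 to 4.17 in AE stems and 3.88 to 3.89 in AI stems. At 11 days it was 1.59 to 2.45 in the 6 control libraries and 1.86 to 2.76 in AE stems, whereas the AI stems stood at 3.99 and 4.02. Ribosomal RNA took 22.1% of the counts in 1 AE 11-day library, whose median was 2.73. In the other 4 it took 0.0984% to 0.169%, against 0.0948% to 0.152% in AE stems at 24 hours, and their medians were 1.86 to 2.76. The AI stems at 11 days had 0.064% and 0.0818%.

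**Figure D5:**
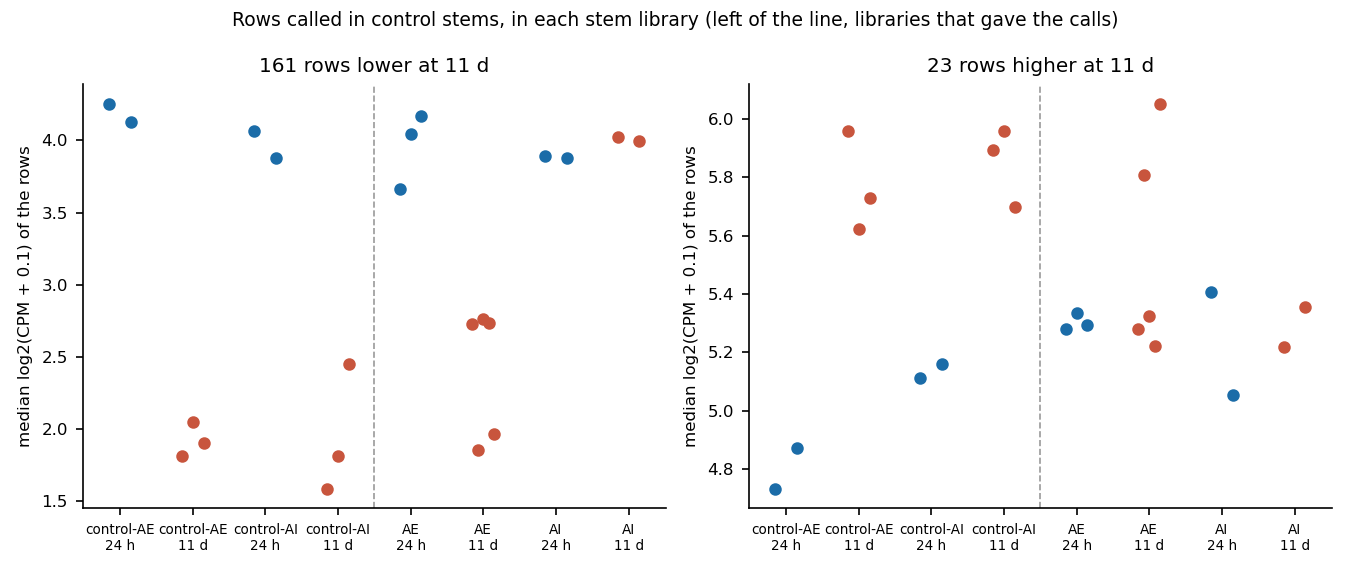
Median log2(CPM + 0.1) of the 161 rows lower at 11 days (left) and the 23 rows higher at 11 days (right) in each stem library with at least 1000000 counts, by group. The lower rows stand between 3.67 and 4.25 in all groups at 24 hours and at 3.99 and 4.02 in AI stems at 11 days, and between 1.59 and 2.76 in control and AE stems at 11 days.

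The 5 control stem libraries left out for their depth (90306 to 195656 counts beside ribosomal RNA) had no part in choosing the rows. Summed over the 162 lower rows, the 3 shallow libraries at 11 days had 3118, 3628 and 3940 CPM and the 2 at 24 hours had 4850 and 5189. The 95% Poisson intervals, which cover counting error only, reached from 2875 to 4266 at 11 days and from 4407 to 5539 at 24 hours. The shallow libraries thus had the same order as the deep ones, where the sums were 1467 to 2269 at 11 days and 4876 to 6521 at 24 hours, with a smaller gap. Summed over the 23 higher rows they had 2934 to 3241 at 11 days and 2067 and 2658 at 24 hours. With 3 libraries against 2, an exact permutation test cannot go below a two-sided p of 0.2, and no other test of these sums was run.

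Roots of control plants were compared over the same times. In 7 root libraries at 11 days and 6 at 24 hours, 298 of 22591 rows were called (1.32%), and 3 of these were rows called in the same direction in stems. Of the 162 lower rows 120 could be tested in roots, their median log2 fold change there was -0.18 and 3 were called lower, which is 2.5% against 0.553% of all root rows. Of the 23 higher rows 22 could be tested, none was called higher (0.766% of all root rows) and cytochrome P450 94A1 was called lower. The change over time differed between stem and root in 128 of 25179 rows (0.508%), 109 of them more negative in the stem (0.433%) and 19 more positive (0.0755%). The control stem values of this test also chose the called rows, and 5 rows were named for their low p in it. The differences of the named rows are thus a description. Among the named rows, TOO MANY MOUTHS had a difference of -3.09 (adjusted p = 0.0198 in edgeR), with 12.5 to 18.0 CPM in stems and 0.484 to 2.95 CPM in roots at 24 hours. ABC transporter B family member 2 differed by -2.21 (adjusted p = 0.0133), trehalose-phosphate phosphatase J by -1.39 (adjusted p = 0.0294), the UPF0481 protein by -1.29 (adjusted p = 0.0207) and GDSL esterase/lipase 5 by -0.91 (adjusted p = 0.0454). Cytochrome P450 94A1 went opposite ways, up in stems and down in roots from 49.8 to 75.6 CPM at 24 hours to 22.7 to 50.1 CPM at 11 days, and differed by 1.53 (adjusted p = 0.00859). Root phototropism protein 3 differed by -1.06 (adjusted p = 0.0294), although it was not called in stems alone.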

How the data were processed

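Polyadenylated RNA of stems and roots was sequenced on an Illumina HiSeq. After trimming and alignment to the genome of Populus trichocarpa, the authors deposited whole-number counts per transcript row, with no normalization. Their notes name FastQC, STAR and featureCounts of Subread. The build behind the RefSeq sequence names, the strand setting and the treatment of reads that match several places are not given in the sources used here. Reads of a hybrid were thus counted on models of another species, and a gene that differs between them may lose counts.

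Libraries under 1000000 counts were left out (5 of 15 control stems, the 5 labelled low), and 20 ribosomal rows were dropped. Rows passed filterByExpr (minimum count 10, minimum total 15, by time) and were tested in edgeR 4.0.16 (TMM, glmQLFit, glmQLFTest, R 4.3.3) with arm and time as terms, Benjamini-Hochberg adjusted at 0.05 over all 22591 rows. CPM are scaled by TMM. Standard errors are the absolute log2 fold change over the square root of F. The files hold 62007 rows of 37173 gene identifiers, and 10975 identifiers have more than 1 row, so reads shared by transcripts could be split. Alternatives were DESeq2 1.42.0, limma voom, other scalings, filters and library sets, a replicate block and the omission of single libraries. The fits on ribosomal RNA and on all stems were added after the data were seen. Named rows were up to 12 rises and 12 falls with a product name. These had to be called, not to overlap between the times, to have the same sign in both arms and to pass a minimum mean level. Further named rows were up to 4 called and 2 most abundant rows of a list, 5 rows of lowest p for each interaction and the 5 genes the paper named. PRE1, nitrate reductase, auxin-induced protein 22D, auxin response factor 19, the other laccases and the identifiers were chosen after their values were seen. The members and lists were chosen with earlier results of these data known. On simulated data edgeR called 40%, 72%, 90% and 84% of 50 rows each changed by 1, 1.5, 2 and 3 on the log2 scale, and 6 unchanged rows. Within each control stem group no 2 libraries were repeats of each other, and other pairs were not compared. Tables and plots were made with Python 3.11.15 and matplotlib 3.10.9.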

Additional observations from a re-analysis of the deposited data

Results flagged for a closer look

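In 88 groups of 6 or 4 libraries (44 named rows at both times) 5 libraries lay far from the rest of their group by Dixon's criterion, which flags about 1 group in 20 by chance. Control-AI 11-day replicate 3 stood apart at 7.45 CPM for PRE1 (others 1.72 to 2.86) and at 10.2 CPM for TOO MANY MOUTHS (others 2.52 to 5.02), and its value was nearer to the 24-hour libraries in both. The same library raised the number of calls from 185 to 675 when left out. Control-AI 11-day replicate 1 stood at 2140 CPM for trans-cinnamate 4-monooxygenase, against 1350 to 1500 CPM. Control-AE 11-day replicate 4 stood at 338 CPM for cellulose synthase A catalytic subunit 1, against 265 to 288 CPM. Control-AE 11-day replicate 2 stood at 4.35 CPM for anthocyanidin 3-O-glucosyltransferase 5, against 2.53 to 3.18 CPM.

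The change over time differed between arms, tissues or sprays in several named rows. These rows were chosen by the same control stem values or by a low p in the same test, so their differences are a description. Class V chitinase differed by 4.12 on the log2 scale between the control arms. Between stem and root, cytochrome P450 94A1 differed by 1.53, TOO MANY MOUTHS by -3.09, ABC transporter B family member 2 by -2.21, trehalose-phosphate phosphatase J by -1.39, the UPF0481 protein by -1.29, GDSL esterase/lipase 5 by -0.911 and root phototropism protein 3 by -1.06. Between AI and control stems, ABC transporter B family member 2 differed by 1.84, and 11 rows were called in that test, against 1 row for AE and control stems.

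Signals outside the main comparison were seen in the ribosomal rows and in the shallow libraries. Ribosomal RNA took 7.59%, 0.503% and 0.173% of the counts in control-AE 11-day replicates 1, 2 and 4 and 0.347%, 11.4% and 0.354% in control-AI 11-day replicates 1, 2 and 3, all above the deep 24-hour control stems. The shallow control stems did not show this order, with 2.41%, 3.55% and 3.53% at 11 days and 2.10% and 3.09% at 24 hours. In the shallow AI 11-day libraries the 162 lower rows summed to 1920, 4350 and 4240 CPM in replicates 1, 2 and 4, and to 5212 and 5318 in the deep ones. Replicate 1 lay within the range of the deep control stems at 11 days (1467 to 2269 CPM) and below the shallow ones (3118 to 3940 CPM). Ribosomal RNA took 31.99% of the counts in this replicate, against 2.45% and 4.52% in replicates 2 and 4. No test of these sums was run, and the reason for their spread was not tested.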

How the results depend on the processing

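Direction was kept more often than the calls. The 16 called rows with a product name kept their sign under all 24 alternatives, and 230 of 384 values kept their side of the threshold. The alternatives reuse libraries that chose these rows, so the kept signs are a description. The main count of 185 became 962 with DESeq2 (384 higher, 578 lower), 352 without a filter, 316 with limma voom and 312 with all 15 control stems. It was 222 in control-AE alone and 2 in control-AI alone, 64 without the libraries richest in ribosomal RNA, 5 with the ribosomal share as a covariate and 1062 with all stems. Leaving out 1 library gave 65 to 675. The list members called (8) became 36, 19, 14 and 17 under DESeq2, no filter, limma voom and all 15 control stems, 0 in control-AI alone, 2 and 0 under the ribosomal alternatives, 30 with all stems and 3 to 28 without 1 library. The difference between arms (1 call) gave 69 with DESeq2, 14 without a filter and 0 to 4 without 1 library. DESeq2 gave 13 calls between arms, 1674 in AE stems, 99 in AI stems and 568 for stem against root.

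Replicate numbers were not used to pair the samples in the main fit. The same-numbered libraries had residual correlations of -0.247, -0.126 and -0.109, and other pairs of an arm had -0.257 to -0.0291. With 3 same-numbered pairs these values cannot settle whether the numbers pair the samples. The fit with the replicate block gave 55 calls, of which 38 were among the 185, and 3 list members. It called 5 of the 16 named rows.

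Rows not called turned sign as follows. LHCII type 1 gave 0.043 in control-AI alone and -0.287 to 0.099 without 1 library. The Rubisco small chain gave -0.028 in control-AE alone, -0.054 with the ribosomal covariate and -0.174 to 0.490 without 1 library. Histone H1.2 gave -0.12 in control-AI alone and -0.073 to 0.108 without 1 library. PIP1-2 and PIP2-8 gave -0.14 and -0.28 with the ribosomal covariate, and PIP1-4 gave -0.82 in control-AI alone and -0.087 to 0.636 without 1 library. MYB93 gave -0.086 in control-AI alone, an AAA-ATPase ASD -0.45 in control-AE alone, and polygalacturonase -0.33 there, -0.20 with all stems and -0.125 to 0.441 without 1 library. The causes were not tested. Rows near 1 CPM rest on few reads in the libraries of lowest depth.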
